A study of Mus musculus with 8 samples.

Results

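Gene deserts are long stretches of the genome without protein-coding genes. The CTCF sites described here were those whose centre lay outside every protein-coding gene and more than 500 kb from every protein-coding transcription start site (TSS) of GENCODE vM1, and they numbered 1959 of the 104008 sites measured. CTCF ChIP-seq was done in iMEF2, a line of mouse embryo fibroblasts with floxed Ash2l alleles (Ash2l fl/fl) and a Cre-ER recombinase, immortalised with an shRNA against p19Arf. Cells of this line received 5 nM 4-hydroxytamoxifen (+HOT) or ethanol as vehicle (-HOT) for 7 days. HOT activates Cre-ER, which removes exon 4 of Ash2l, a core subunit of the KMT2 complexes that methylate lysine 4 of histone H3. Each treatment had 2 CTCF immunoprecipitations, numbered R1 and R3 in the deposited table, and 2 inputs. The study calls them technical replicates of 1 cell line, and a p-value here reflects the scatter among libraries that may differ only technically. Both arms carry the floxed alleles, Cre-ER and the shRNA. The arms differ in more than the exon, because HOT-treated cells stopped proliferating and were passaged less often than vehicle-treated cells. The question was whether CTCF binding changes when Ash2l is lost, here at sites far from any protein-coding gene.

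CTCF is a zinc finger protein that binds a long DNA motif and halts the loop-extruding cohesin complex, so that its sites become the anchors of chromatin loops and the borders of topological domains. Gene deserts often flank genes for developmental regulators and neuronal adhesion proteins, and many hold enhancers that act on such genes over long distances. In rodents the B2 family of short interspersed elements (SINEs) carries a CTCF motif, and copies of it have spread CTCF sites through the genome.

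The sequences of several sites show what CTCF meets in these regions. They are a selection from the sites with the clearest gain, the lost sites and the sites with most reads, all with a match to a CTCF matrix of 20 positions. Other sites of these sets had a match as well and are not shown. Each is 60 bases of mm9 (NCBIM37), given 5′ to 3′ on the strand of the match, with the matched 20 bases in capitals. The name gives the protein-coding genes on either side of the desert.
Zeb2–Acvr2a, gained, chr2:46909355-46909414, plus strand: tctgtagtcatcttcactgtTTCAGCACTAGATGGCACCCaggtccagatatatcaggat
Ythdf3–Gm10742, gained, chr3:16716953-16717012, plus strand: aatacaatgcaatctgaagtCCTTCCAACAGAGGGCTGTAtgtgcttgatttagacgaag
Pcdh17–Diap3, gained, chr14:86962741-86962800, minus strand: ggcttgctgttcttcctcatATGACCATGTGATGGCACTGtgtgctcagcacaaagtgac
Pcdh7–G6pd2, gained, chr5:61000333-61000392, minus strand: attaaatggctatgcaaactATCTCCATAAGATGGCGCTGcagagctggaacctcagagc
Nmbr–Cited2, gained, chr10:15618573-15618632, plus strand: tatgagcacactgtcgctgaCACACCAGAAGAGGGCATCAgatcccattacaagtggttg
Hs3st1–Rab28, gained, chr5:41344326-41344385, minus strand: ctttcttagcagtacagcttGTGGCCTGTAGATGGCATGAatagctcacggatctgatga
Pcmtd1–Sntg1, gained, chr1:7759830-7759889, minus strand: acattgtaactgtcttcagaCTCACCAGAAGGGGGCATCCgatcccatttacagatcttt
Pcdh7–G6pd2, lost, chr5:58662371-58662430, minus strand: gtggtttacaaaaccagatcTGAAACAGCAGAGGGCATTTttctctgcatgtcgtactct
Csmd3–Trps1, among the 5 with most reads, chr15:50093213-50093272, minus strand: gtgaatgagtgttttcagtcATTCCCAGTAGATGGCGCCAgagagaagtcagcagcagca
Cdh12–Cdh18, among the 5 with most reads, chr15:21815116-21815175, plus strand: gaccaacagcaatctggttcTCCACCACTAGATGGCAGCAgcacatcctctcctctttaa

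The Nmbr–Cited2 and Pcmtd1–Sntg1 sites, both annotated in the deposited lists as B2_Mm2 elements, share 17 of the 20 matched bases. The 20 capitals of the Nmbr–Cited2 site recurred, base for base, in 6797 of all sites (6.54%) and in 51 desert sites (2.6%). Their reads at the desert copies had a median log2 fold change (log2FC, +HOT over -HOT) of 0.25, and 2 of 47 tested copies were gained. Over all sites 52 of 6415 tested copies (0.811%) were gained, with a median log2FC of -0.07. How reads that fit several copies of a repeat were treated is not given in the sources used here beyond the mapper.

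CTCF sites were sparse in the deserts. The stretches beyond 500 kb of any TSS made up 307 deserts and 8.67% of the known bases of the genome, and held 1.88% of the sites, or 8.84 sites per Mb against 43.7 per Mb elsewhere. Of these deserts, 270 held at least 1 site, and the median of those held 5. The median site lay 710 kb from the nearest protein-coding TSS and 29.7 kb from the next CTCF site, compared with 5.24 kb to the next site at other intergenic sites, those outside genes and more than 3000 bp but not more than 500 kb from a TSS. In total, 47 desert sites lay within 3000 bp of the TSS of a gene that is not protein-coding, and 8 inside a lincRNA.

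The desert sites were also narrower, poorer in GC and more often without a CTCF motif. Their median width was 326 bp and their median GC content 40.2%, against 373 bp and 43.8% at other intergenic sites, while the desert bases as a whole had 37.5% GC. A match to the matrix was found in 65.5% of desert sites, in 80.8% of other intergenic sites and in 79.4% of all sites. With the core letters CCANNAGNNGGC on either strand as the criterion, the shares were 33.1%, 50.5% and 49.8%. The matrix was itself built from the strongest of these sites, and its threshold was set so that 5.0% of shuffled sequences of all sites passed. The rate for shuffled desert sequences alone was not measured. A site without a match is one that scored below this threshold and no more. CpG-island-like sequence was found at 3 desert sites (0.153%), compared with 23.9% of sites within 3000 bp of a protein-coding TSS. Motifs at neighbouring sites of the same desert pointed the same way in 542 of 1032 pairs (52.5%), towards each other in 249 (24.1%) and away from each other in 241 (23.4%). Of the desert motifs 49.7% were on the plus strand, and strands drawn at random would give shares close to these. Pairs of other sites were not counted.

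Reads at these sites were few. Normalised reads (counts scaled to a common effective library size) had a median of 21.0 per desert site with quartiles of 13.2 and 40.7, against 30.9 at other intergenic sites. The libraries held 4221752 and 3126722 reads in sites for -HOT and 9280701 and 7653295 for +HOT, so every -HOT value rests on fewer reads. The sites were themselves called as peaks in this experiment. Whether the list favours sites high in the deeper +HOT libraries was not tested, and thinning counts at fixed sites does not test it. No column was given for the inputs, and background reads under the sites were not subtracted. At the CTCF site over exon 4 of Ash2l (chr8:26946472-26946648), the deleted exon, 17.7 and 11.9 normalised reads were counted in -HOT and 6.51 and 14.8 in +HOT. This difference did not pass the test (log2FC -0.54 ± 0.52 SE, adjusted p = 0.543), so these reads do not decide the deletion at this depth.

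A larger share of the CTCF reads lay in the deserts after HOT. Desert sites took 0.949% (95% Wilson interval 0.94 to 0.959) and 0.927% (0.917 to 0.938) of all reads in sites in the -HOT libraries, and 1.293% (1.286 to 1.3) and 1.296% (1.288 to 1.304) in the +HOT libraries. Both +HOT libraries lay above both -HOT libraries, with means of 0.938% ± 0.0155 and 1.295% ± 0.00228 (SD, n = 2 each), a difference of 0.356 percentage points or 1.38-fold. The exact two-sided permutation test gave p = 0.33, the smallest value that 2 against 2 libraries allow. The intervals cover counting error only. Measured against other intergenic sites, the desert reads were 22.5 and 22.1 per 1000 in -HOT and 29.2 and 29.2 per 1000 in +HOT, 1.309-fold higher with the same p of 0.33 in the exact permutation test. Without the 50 desert sites with most reads the share was 1.459-fold higher, so the difference was not carried by the strongest sites.

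**Figure D1:**
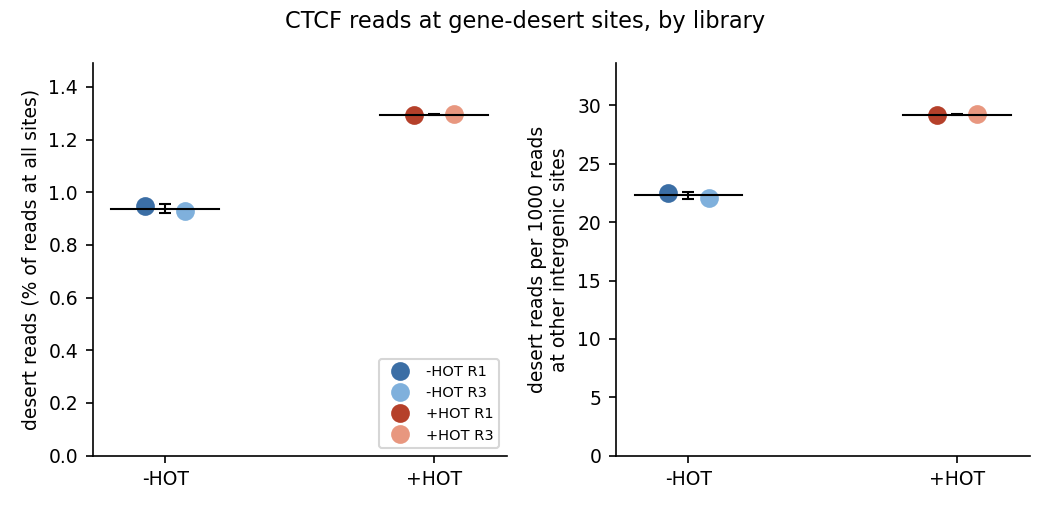
CTCF reads at desert sites in each library, as a percentage of the reads at all sites (left axis) and per 1000 reads at other intergenic sites (right axis). Points are single libraries, the horizontal line is the group mean and the bar 1 SD of 2 libraries. Both +HOT libraries, at 1.293% and 1.296%, sit above the -HOT libraries at 0.949% and 0.927%.

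Site by site, 1783 of the 1959 desert sites had enough reads to be tested. The filter asked for enough reads in any 2 libraries, so a site could enter through the +HOT libraries alone. The same filter applied to all sites. Of these, 265 (14.9%) were gained, at an adjusted p below 0.05 in the edgeR quasi-likelihood test and an absolute log2FC above 1, and 7 (0.393%) were lost. Among all 99560 sites tested, 3.89% were gained and 1.5% were lost. With no fold threshold 435 desert sites were higher and 16 lower in +HOT, compared with 9.45% of all sites higher and 9.08% lower. The median log2FC of the desert sites was 0.454, with quartiles of 0.062 and 0.864, and 78.3% of them lay above 0. At other intergenic sites the median was 0.108 and at all sites 0.009.

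The shift was alike in each pair of libraries. The median log2 difference of desert sites between a +HOT and a -HOT library ranged from 0.423 to 0.436 over the 4 possible pairs, and that of other intergenic sites from 0.101 to 0.113. Sites are not replicates, and the median over sites was therefore given no test. With counts thinned to the smallest library, an alternative chosen after seeing the data, 219 desert sites (19.3% of those tested) were gained and 3 lost. The share of all sites gained or lost in that fit was not counted, so these counts have no background beside them. DESeq2 gave an adjusted p to fewer sites and called 114 desert sites gained, or 14.2% of those with an adjusted p, and 1 lost, where 2.82% of all sites with an adjusted p were gained and 1.21% lost. Scaling the libraries along site strength, so that sites of like read number centre on no change, left 179 desert sites gained and 5 lost, with 2.26% of all sites gained and 2.05% lost.

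The gain was graded with distance from protein-coding genes. Among intergenic sites, those within 3 kb of a protein-coding TSS were gained in 1.69% and had a median log2FC of -0.263. At 3 to 10 kb 2.43% were gained, at 10 to 50 kb 3.89%, at 50 to 100 kb 6.77%, at 100 to 250 kb 9.12% and at 250 to 500 kb 12.1%, before the 14.9% of the deserts. The median log2FC climbed over the same steps through -0.019, 0.061, 0.163, 0.261 and 0.382 to 0.454. Since the number of reads per site fell with distance, the count was repeated for sites of 20 to 80 normalised reads, where the gained share went from 3.23% within 3 kb to 19.5% at 250 to 500 kb and 26.0% in the deserts. Inside the deserts the gained share followed no steady order. It was 14.8% of sites 500 to 600 kb from a TSS, 12.2% at 800 to 1000 kb, 14% at 1000 to 1500 kb and 24% (18 of 75) beyond 1500 kb, and the medians were 0.395, 0.454, 0.54 and 0.553.

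**Figure D2:**
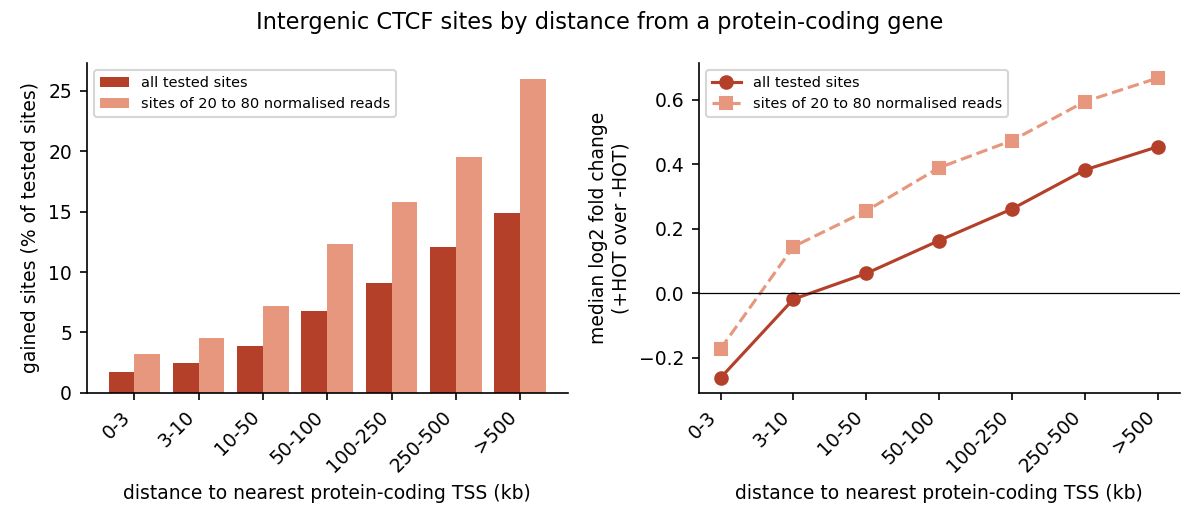
Intergenic sites grouped by distance to the nearest protein-coding TSS in kb (x axis, unequal bins), with the percentage of tested sites gained (left) and the median log2 fold change of +HOT over -HOT (right), for all tested sites and for those of 20 to 80 normalised reads. Both measures are highest in the last bin, the deserts, at 14.9% and 0.454 over all tested sites.

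The gain also differed with site strength. In the deserts it fell mostly on sites of middling read number, with 132 of 522 sites (25.3%) of 20 to 40 normalised reads gained and 82 of 300 (27.3%) of 40 to 80. At other intergenic sites of the same strength 9.04% and 11% were gained. At 80 to 160 reads 9 of 186 desert sites (4.84%) were gained against 1.36% of other intergenic sites. Of the 20 desert sites above 160 reads edgeR and DESeq2 called none gained or lost. At an unadjusted p below 0.05 in edgeR 13 of them were lower and 1 higher in +HOT, and their median log2FC of -0.287 was close to the -0.288 of other intergenic sites of that strength. Part of this pattern was shared by the whole table, where the median was 0.261 at 40 to 80 reads and -0.316 above 160.

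**Figure D3:**
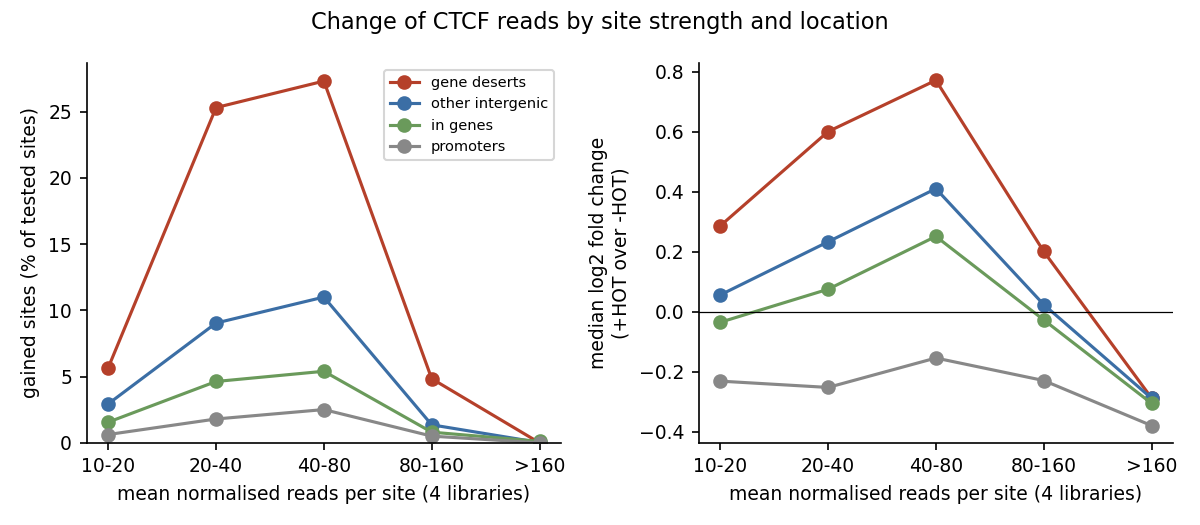
Percentage of tested sites gained (left) and median log2 fold change of +HOT over -HOT (right) by mean normalised reads per site over the 4 libraries, for desert sites, other intergenic sites, sites in genes and sites within 3000 bp of a protein-coding TSS. Desert sites stand highest from 10 to 160 reads and meet the other intergenic sites above 160 reads.

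Within the deserts, gained sites and uncalled sites differed modestly in sequence. Gained sites had a median GC content of 41.2%, a median width of 394 bp and a motif match in 195 of 265 (73.6%). The 1511 sites that were not called had 39.8% GC, 326 bp and a match in 65.3%. The gained share grew with GC content, from 10.3% of sites up to 36% GC to 18.8% of those above 48%, although the sites richer in GC had fewer reads (a median of 16.1 against 27.4). Sites with a match were gained in 16.5% and those without in 11.7%, whereas at other intergenic sites the 2 shares were 5.37% and 5.55%. Read number differed as well. Tested desert sites with a match had a median of 25.4 normalised reads and those without 19.3, against 35.0 and 26.2 at other intergenic sites. A mean of at least 20 normalised reads was reached by 223 of the 265 gained sites and 803 of the 1511 not called. These shares describe sites of the same libraries and were not tested.

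Repeat elements could be counted only for the sites that the deposited lists annotate, which were picked on the same contrast. Of the 265 gained desert sites 114 had such a label. In 28 of them (24.6%) it was a member of the B2 family, in 14 a LINE and in 13 an LTR element, and 49 were labelled plainly intergenic. Among labelled gained sites over all sites 24.8% were in the B2 family. A further 6 carried a label of an intron, exon, promoter or other part of a transcript, so that some members lie in or beside a transcript of another annotation. Whether the gene models used here hold these transcripts as non-coding genes was not checked.

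The 10 gained sites with the smallest p lay in 10 different deserts on 9 chromosomes. The rule for naming admitted only gained sites with both +HOT libraries above both -HOT libraries. That order was found at 990 of 1783 tested desert sites (55.5%) and at 29.6% of all tested sites. Both shares are of sites that passed the count filter, which can admit a site through +HOT alone. Between Zeb2, a zinc finger repressor of development, and Acvr2a, an activin receptor, the site chr2:46909157-46909697 had 50.0 and 39.8 normalised reads in -HOT and 155 and 145 in +HOT. It lay 1760 kb from the nearest protein-coding TSS, and its reads rose 3.29-fold (log2FC 1.72 ± 0.19 SE, adjusted p = 2.25e-10). The site chr3:16716729-16717213 lay 633.7 kb from Ythdf3, which encodes a reader of methylated adenosine in RNA. It went from 20.6 and 15.9 reads to 91.2 and 84.2 (log2FC 2.23 ± 0.27, adjusted p = 6.06e-09). In the deposited list it was placed at the start of a non-coding transcript. The +HOT values were thus several times those of -HOT at both sites, and the replicates lay close together.

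Near Smarca1, an ISWI chromatin remodeller, chrX:44645799-44646226 rose from 13.2 and 15.9 reads to 72.3 and 72.5, which was 5.0-fold (log2FC 2.32 ± 0.3, adjusted p = 3.93e-08) and the steepest of the 10. This site had 52.3% GC and no match to the matrix. Between Pcdh17, a protocadherin, and Diap3, a formin of the actin cytoskeleton, chr14:86962513-86962987 rose from 33.8 and 31.8 to 98.3 and 115 reads (log2FC 1.68 ± 0.23). Between the protocadherin gene Pcdh7 and G6pd2, chr5:61000143-61000596 rose from 25 and 25.9 to 84.0 and 95.9 reads (log2FC 1.81 ± 0.25). The adjusted p of these 3 sites in edgeR ranged from 3.93e-08 to 1.6e-07.

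Both B2 sites shown above were among the 10. The Nmbr–Cited2 site (chr10:15618344-15618814), between the neuromedin B receptor and a coactivator that binds CBP and p300, had 60.3 and 65.7 reads in -HOT and 155 and 136 in +HOT (log2FC 1.22 ± 0.17). The Pcmtd1–Sntg1 site (chr1:7759636-7760097) had 19.1 and 23.9 reads in -HOT and 69.0 and 87.4 in +HOT (log2FC 1.87 ± 0.27). At 564.6 kb from Lsamp, an adhesion molecule of the limbic system, chr16:40968164-40968636 had 55.9 and 67.7 reads in -HOT and 133 and 156 in +HOT (log2FC 1.23 ± 0.18). The deposited list places it in an intron of a longer Lsamp transcript, and no motif match was found. Between Hs3st1, a heparan sulfate sulfotransferase, and Rab28, a small GTPase, chr5:41344146-41344620 had 45.6 and 61.7 reads in -HOT and 141 and 119 in +HOT (log2FC 1.32 ± 0.19). These 4 sites had adjusted p values between 4e-07 and 7.29e-07.

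The last of the 10 was chr18:81993578-81994243, between Sall3, a zinc finger transcription factor, and Galr1, a galanin receptor. It had 30.9 and 35.8 reads in -HOT and 96.4 and 140 in +HOT (log2FC 1.82 ± 0.23, adjusted p = 2.04e-08), so the +HOT libraries differed more from each other here than elsewhere. Each of the 10 sites stayed gained in each of the alternative fits across all sites.

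**Figure D4:**
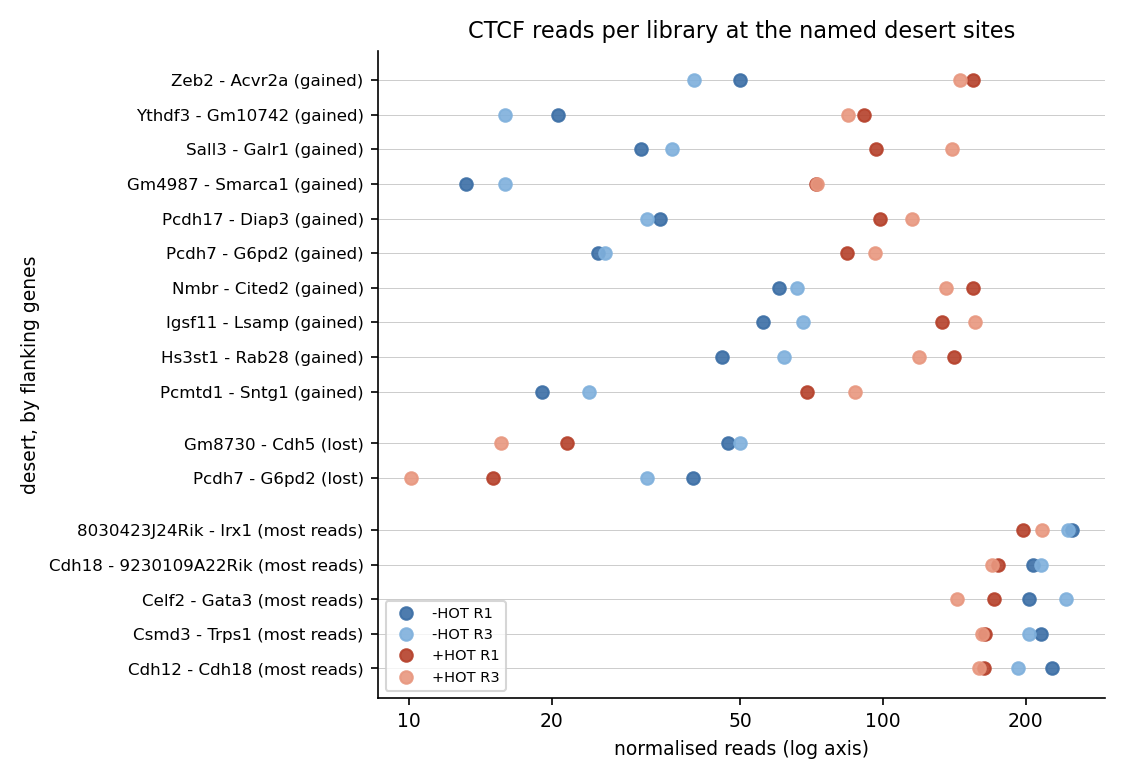
Normalised reads (log axis) in each of the 4 libraries at 10 gained, 2 lost and 5 most-read desert sites, named by the genes on either side of the desert. At the gained sites both +HOT points lie to the right of both -HOT points, at the lost and the most-read sites to the left. The rule for naming required this order of the gained and the lost sites.

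Lost sites were few. Of the -HOT libraries R1 had more normalised reads at some of them and R3 at others, and leaving out either leaves the -HOT arm with a single library. By the rule for naming, 2 of the 7 qualified. The site chr8:106119284-106119540, 506.1 kb from Cdh5, the cadherin of endothelial cells, fell from 47.1 and 49.8 to 21.5 and 15.6 reads (log2FC -1.36 ± 0.3, adjusted p = 0.000724) and had no motif match. In the Pcdh7–G6pd2 desert, chr5:58662276-58662554 fell from 39.7 and 31.8 to 15.0 and 10.1 reads (log2FC -1.5 ± 0.35, adjusted p = 0.00138). It was not called by DESeq2 or without -HOT R1. The other 5 lost sites had means of 10.9 to 17.9 normalised reads over the 4 libraries. At the one of them with the smallest p, between Unc5d and Dusp26 and named after its values were seen, -HOT R1 had 35.3 reads, -HOT R3 11.9 and the +HOT libraries 2.6 and 2.3. Without -HOT R1 fewer desert sites were lost, and the median log2FC of the desert sites was 0.482.

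The desert sites with most reads did not gain. At chr13:71595915-71596460, 505.0 kb from the homeobox gene Irx1, 250 and 245 reads in -HOT stood against 197 and 216 in +HOT (log2FC -0.27 ± 0.11, adjusted p = 0.0705). The site chr2:8597978-8598841, in the desert between Celf2, an RNA-binding protein gene, and Gata3, a transcription factor of T cell and kidney development, had 203 and 243 reads in -HOT and 171 and 143 in +HOT. Its log2FC of -0.48 ± 0.12 (adjusted p = 0.00265) was below the fold threshold. In the desert of Trps1, a GATA-type repressor of skeletal development, chr15:50093003-50093524 had 215 and 203 reads against 164 and 162 (log2FC -0.36 ± 0.12, adjusted p = 0.0226). At the 2 others, beside the cadherin gene Cdh18 on chromosome 15, log2FC was -0.39 ± 0.12 and -0.29 ± 0.12. In all 5 log2FC was below 0, as it was at most sites of that strength. Over all tested sites above 160 reads the median log2FC was -0.316, with an upper quartile of -0.201. Scaling along site strength gave a log2FC of 0.07 at the Irx1 site and between -0.22 and -0.02 at the other 4.

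Among the most remote sites, that between Cntnap5b and Cdh20 (chr1:104275170-104275586) lay 2390 kb from any protein-coding TSS, the farthest of all members. It had 19.1 and 15.9 reads in -HOT and 39.7 and 71.0 in +HOT (log2FC 1.61 ± 0.33, adjusted p = 0.000227), and the deposited list places it in an RMER19B element of the LTR class. The next by distance, 2215 kb from Pcdh17 (chr14:82628386-82628741), had 28.0 and 19.9 reads against 28.0 and 30.4 (log2FC 0.25 ± 0.33, adjusted p = 0.674), and the R1 libraries of both arms had nearly the same value. The one after it, 2196 kb from Pik3c3 (chr18:28236224-28236626), had 30.9 and 25.9 reads in -HOT and 51.4 and 53.8 in +HOT. It was higher in +HOT in both libraries (log2FC 0.87 ± 0.27, adjusted p = 0.0179), below the fold threshold. At the limit that defines the deserts, the nearest member lay just over 500 kb from a TSS (chr15:24578697-24579077). It had 42.7 and 49.8 reads in -HOT and 58.6 and 42.9 in +HOT (log2FC 0.16 ± 0.25, edgeR adjusted p = 0.72). The nearest intergenic site on the other side, at 499.9 kb (chr12:22877788-22878219), had 10.3 and 13.9 reads in -HOT and 36.5 and 32.0 in +HOT. Although not a member, this site was gained (log2FC 1.53 ± 0.38, edgeR adjusted p = 0.00267).

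The deserts differed from one another. In 134 of them 5 or more sites were tested, and in 125 of these the median log2FC was above 0, over a range from -0.383 between Cetn3 and Mef2c to 1.35 between Plekhb2 and Hs6st1. At least 1 gained site was present in 144 deserts, and none held more than 7. The desert with most sites, Zeb2–Acvr2a, had 35 over 2.7 Mb. Their summed normalised reads were 1706 and 1811 in -HOT and 2172 and 2063 in +HOT, with 4 of 34 tested sites gained. Its strongest site (chr2:47641164-47641929) had 184 and 185 reads in -HOT and 179 and 161 in +HOT (log2FC -0.11 ± 0.12, adjusted p = 0.592). The Nudt12–Efna5 desert had 31 sites, 1 of them gained, and a median log2FC of 0.0186. Its strongest site (chr17:59781911-59782455) had 115, 107, 120 and 105 reads in -HOT R1, -HOT R3, +HOT R1 and +HOT R3. In the Celf2–Gata3 desert, with 30 sites, summed reads were 1889 and 1865 in -HOT and 1926 and 1762 in +HOT, and the groups overlapped.

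Several deserts had more of their sites gained. In the desert between Cntnap5b, a neurexin family gene, and the cadherin gene Cdh20, which at 3.78 Mb was the longest, 7 of 14 tested sites were gained and summed reads went from 256 and 238.9 to 474.7 and 595.9, 2.16-fold. In that between D3Ertd751e and the protocadherin gene Pcdh10, 7 of 18 were gained and reads went from 486.9 and 386.2 to 867.4 and 676.2. All 5 tested sites of the Plekhb2–Hs6st1 desert were gained, with summed reads of 110.3 and 175.2 in -HOT and 297.6 and 355.6 in +HOT. These deserts were picked out for their counts after the values were seen. Median normalised reads per site were 22.2, 26.7 and 32.0 in them, against 27.8 in Zeb2–Acvr2a.

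**Figure D5:**
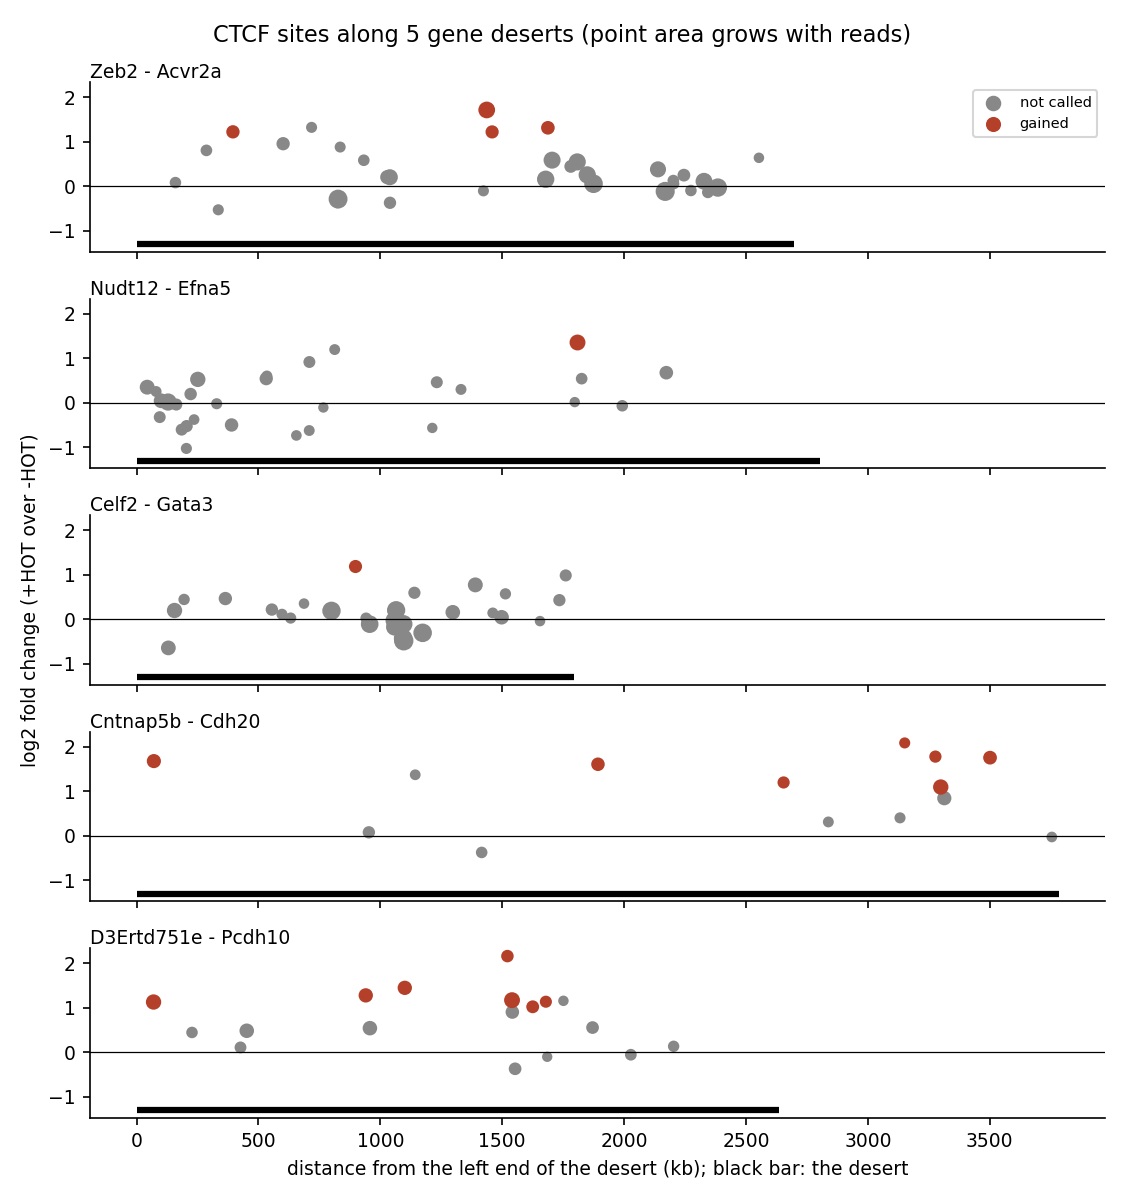
Log2 fold change (+HOT over -HOT) of each tested site against its distance in kb from the left end of the desert, for the 3 deserts with most sites and the 2 with most gained sites. The black bar spans the desert, point area grows with normalised reads, and red points are gained sites, 4 in Zeb2–Acvr2a, 1 each in Nudt12–Efna5 and Celf2–Gata3, and 7 each in Cntnap5b–Cdh20 and D3Ertd751e–Pcdh10.

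Flanking genes of 2 kinds were counted. A developmental regulator, such as Zeb2, Gata3, Sox11 or Nr2f1, stood at either end of 21 deserts. Of their 143 tested sites 10 (6.99%) were gained in edgeR and 3 in DESeq2, and none was lost in either, although 8 were lower at an unadjusted p below 0.05 in edgeR. The group had a median log2FC of 0.319. A gene for cell adhesion or axon guidance, such as a cadherin, protocadherin, contactin or Eph receptor, flanked 63 deserts, where 78 of 507 tested sites (15.4%) were gained and 4 lost, with a median of 0.474. In the 223 deserts with neither, 177 of 1133 (15.6%) were gained and 3 lost, with a median of 0.462. The strongest desert sites by p beside developmental regulators were those of Zeb2 and Sall3 and one beside Tle4, a Groucho-type corepressor (chr19:15373895-15374457), where 41.2 and 53.7 reads in -HOT stood against 96.4 and 85.0 in +HOT. Its log2FC of 0.97 ± 0.21 (adjusted p = 0.000639) fell just below the fold threshold, and it passed that threshold with total counts (1.01), after thinning (1.21), without -HOT R3 (1.15) and without +HOT R3 (1.05). In the Nr2f1–Arrdc3 desert none of 22 tested sites was gained in edgeR or DESeq2, while 7 were higher at an unadjusted p below 0.05 in edgeR. Its strongest site (chr13:79167229-79167985) had 127 and 113 reads in -HOT against 182 and 140 in +HOT (log2FC 0.43 ± 0.14, adjusted p = 0.0292). The difference between the lists was not tested.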

How the data were processed

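According to the study's methods and the processing notes, the authors mapped reads to mm9 with BWA, filtered them and called peaks with MACS2; SAMtools, deepTools and DESeq2 are named as well. Neither versions, nor the counting tool, nor pooling before peak calling are stated in the sources. The deposited counts are raw reads per site, 1 column for each of 4 immunoprecipitations; 4 columns of normalised values, and the authors' own log2 fold changes and adjusted p-values, were left out. The deposited lists gave repeat labels only. Titles number libraries R1 and R2 but columns R1 and R3, so columns were assigned to groups, and numbers pair no libraries. Counts were tested with edgeR 4.0.16 (R 4.3.3; quasi-likelihood, TMM, filterByExpr with a minimum count of 10, robust), adjusted by Benjamini-Hochberg over 99560 sites. SE is the absolute log2FC over the square root of F. Library pairs used log2 of CPM plus 0.5. Coordinates are 1-based. CpG-island-like means over 50% GC and more than 0.6 of the expected CpGs in the central 500 bp. The matrix came from 3074 core matches in the 5000 strongest sites, with a threshold of 2.82 bits. Sites were named by rule, at most 1 per 10 kb: 10 gained and up to 5 lost with the smallest p, no overlap of the groups and at least 20 normalised reads on average; the 5 with most reads; the 3 most remote; the strongest of the 5 deserts with most sites; 3 beside each kind of flanking gene; and the nearest on each side of the limit. Members, lists and rules were chosen with earlier results of these data known. The test was also run on counts simulated from the means and dispersion of the fit to the real counts.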

Additional observations from a re-analysis of the deposited data

How the results depend on the processing

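The gain of desert sites kept its direction in each alternative, while its size and the few lost sites moved. DESeq2 called 114 gained and 1 lost (median log2FC 0.431), and DESeq2 size factors gave a median of 0.43, total counts 0.503. Scaling along strength gave a median of 0.354, and along strength and GC 168 gained (9.42%) with a median of 0.326. Without the count filter 15 were lost (median 0.448), with a mean of at least 20 counts 1 (0.563), and after thinning 3 (0.554). With no fold threshold 435 (24.4%) were higher and 16 lower; above 0.58 421 (23.6%) were gained. The median was 0.466 with 1 site per 10 kb, 0.413 beyond 250 kb, 0.543 beyond 1000 kb and 0.446 on autosomes. Leaving out 1 library gave medians of 0.439 to 0.482. Shares over all sites were counted only for the main fit with and without the fold threshold, for DESeq2 and for scaling along strength. The other counts in this paragraph have no such share beside them. The difference in read share was 0.369 percentage points without the 50 strongest sites, and the ratio to other intergenic sites 1.309. The deposited numbers pair no libraries: deviations of same-numbered libraries correlated at 0.026, and the fit with the replicate block called 272 gained and 7 lost. The cause of these shifts was not tested.

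Signs turned only at sites with small changes. Scaling along strength gave log2FC 0.07 (0.13 with GC) at the Irx1 site, 0.13 (0.1) at the strongest Zeb2–Acvr2a site and -0.07 (-0.1) at the member nearest the limit. At the strongest Nudt12–Efna5 site it was -0.01 with DESeq2, its size factors or strength and GC, and -0.23 after thinning. Leaving out 1 library gave -0.09 to 0.11 there, -0.15 to 0.43 at the strongest Ctnna3–Reep3 site and -0.09 to 0.36 at the member nearest the limit. The smallest library held 3126722 reads in sites, and -HOT values of weak sites rest on few reads.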

Other observations

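The desert sites of single chromosomes differed in how many were gained. The largest share was on chromosome 6, with 13 of 41 tested sites (31.7%) and a median log2FC of 0.927, followed by chromosome 1 with 31 of 122 (25.4%) and 0.749. The smallest shares were on chromosome 19, with 1 of 25 (4%), and chromosome 13, with 3 of 71 (4.23%), although their medians of 0.393 and 0.392 were above 0. The median was above 0 on each of the 20 chromosomes with desert sites. Deserts within a chromosome share libraries, and no difference between chromosomes was tested.

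Of the 47 desert sites within 3000 bp of the start of a gene that is not protein-coding, 40 were tested, and 8 of these (20%) were gained with a median log2FC of 0.267. Another 20-base match that recurred, next in number to that of the Nmbr–Cited2 site, was present at 23 desert sites and 1003 of all sites. Its 13 tested desert copies had a median log2FC of 0.62, but none of them was called gained or lost. The desert copies had a lower median read number than desert sites as a whole. Over all sites 13 of 788 tested copies (1.65%) were gained.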
